A study of Mus musculus with 176 samples.

Results

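The 8 genes described here encode chains of the integrins of CD4 T cells: Itgae, Itga4, Itgal and Itgav for α chains and Itgb7, Itgb1, Itgb2 and Itgb8 for β chains, out of 53546 gene names counted. They were selected on measured values, since Itgae had been seen to be high in tetramer-positive cells and the other chains were added by name as its relatives; the values of that contrast are therefore given as a description. An integrin reaches the cell surface as a dimer of 1 α and 1 β chain, and a cell needs both transcripts to make it. Itgae encodes αE (CD103) and with Itgb7 gives αEβ7. This dimer binds E-cadherin on epithelial cells and is known from intraepithelial lymphocytes and from part of the regulatory T cells. Itga4 with Itgb7 binds MAdCAM-1 in gut venules and Itga4 with Itgb1 (VLA-4) binds VCAM-1, while Itgal with Itgb2 (LFA-1) binds ICAM-1 on antigen-presenting cells. Itgav with Itgb8 (αvβ8) binds latent TGF-β and takes part in its activation, and Itgav with Itgb1 binds matrix proteins and latent TGF-β.

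The cells came from the lymph nodes of 1 female C57BL/6J mouse of 11 weeks, immunized with P6, an MHC class II-restricted peptide of mouse apolipoprotein B, in complete Freund's adjuvant, boosted in incomplete adjuvant at week 2 and harvested at week 4. CD4+ TCRβ+ cells of an antigen-experienced (CD44hi) gate were sorted singly as binding (P6+) or not binding (P6-) an I-Ab tetramer loaded with P6, and each cell was sequenced with the Smart-Seq2 protocol. By the study's methods the P6- cells were taken from a smaller portion of the sample that gave the P6+ cells, so that both groups share the immunization, although the labels name no animal per cell. Cells are not replicates of an animal, so that no test was made. The 95% intervals (exact Poisson for reads, exact binomial for shares of cells) cover counting error only, and reads carry no molecular identifiers. The study reports clonal expansion among the P6+ cells. Cells of 1 clone are not independent, which the intervals do not cover. The limits of 500000 reads, 2000 genes and 10% mitochondrial reads were passed by 161 cells, of which 32 were P6+ (all that were sorted) and the others P6-, and 15 P6- cells were left out. The study also left out cells of low mapping rate, which the count table does not give. It kept all 32 P6+ cells but clearly fewer P6- cells than were used here. The discarded cells that remain here thus all lie in the P6- group and form a sizeable part of it. They could not be identified, and every P6- level and share below includes them. Their effect on the contrast of P6+ with P6- cells was not tested. Passing P6+ cells held 956280 to 3332190 reads (median 1731608) and a median of 4396 genes, and passing P6- cells 522188 to 3401370 reads (median 1500460) and 3432 genes; at 500000 reads a cell the medians were 2720.5 and 2225 genes, and 2592 genes in the same-plate P6- cells. All P6+ cells bore 1 of 8 title prefixes, taken here as plates, which they shared with 11 passing P6- cells, so that the other plates cannot be told apart from the group. All 10 genes of a CD4 T cell marker list were detected in both groups, the erythroid and macrophage lists reached 10 reads in no cell, and Cd8b1 and Eomes did so in 2 P6- cells each. Of the endothelial and dendritic cell lists, Pecam1 reached 10 reads in 7 P6+ and 16 P6- cells and Zbtb46 in 1 cell of each group, and the other genes of these lists in none.

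A chain was called detected in a cell at 10 or more reads, because low read numbers were spread over many cells: 16 P6+ cells held 1 to 9 Itgae reads and 20 held 1 to 9 Itgb1 reads. A level is the sum of a gene's reads over the cells of a group per 1000000 reads of the group (cpm).

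**Figure D1:**
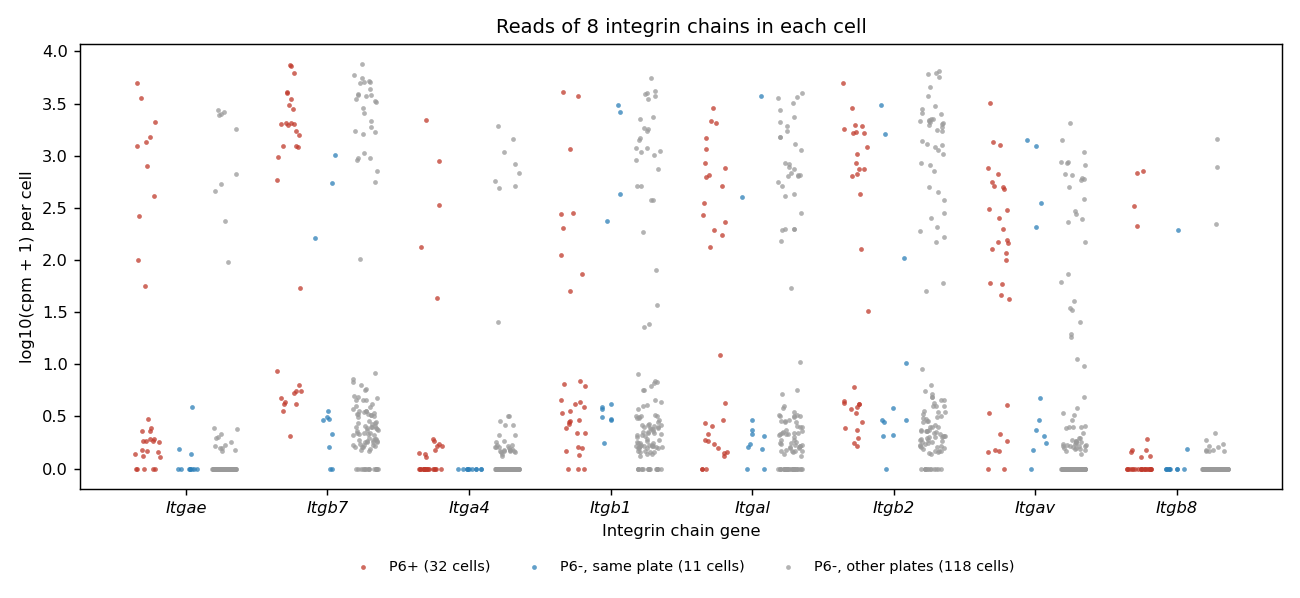
Each point is 1 passing cell, with log10(cpm + 1) of the gene on the y axis and the 8 chains on the x axis, in red for the 32 P6+ cells, blue for the 11 P6- cells of the same plate and grey for the P6- cells of the other plates. Most chains fell into a low and a high cloud of cells, and for Itgae no blue point lay in the high cloud.

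Itgae, which encodes αE (CD103), ranged from 0 to 4981 cpm over the P6+ cells, with a median of 0.906 cpm. It was detected in 11 of 32 P6+ cells (34.4%, 18.6 to 53.2) and in 10 of the P6- cells (7.75%, 3.78 to 13.8), where it ranged from 0 to 2741 cpm with a median of 0. The detected P6+ cells held 92 to 10258 Itgae reads (median 1598), and the other 21 cells held 0 to 4, so that the gene was either clearly present or nearly absent in a cell. Pooled Itgae was 547 cpm in P6+ (541 to 553) and 119.5 cpm in P6- cells (117.97 to 120.97), a log2 ratio of 2.19 at a pseudocount of 1 cpm. Among the cells where Itgae was detected it ran from 55.8 to 4981 cpm in P6+ (median 1230) and from 93.8 to 2741 cpm in P6-. The P6- median of 1231 cpm fell in a gap between cells at 662 and 1800 cpm. With 11 and 10 such cells of wide spread, these medians do not show that the levels per cell were equal. The shares of cells with the transcript differed. In the same-plate P6- cells Itgae was detected in 0 of 11 (exact upper limit 28.5%), and its pooled level was 0.324 cpm.

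Itgb7, the β chain shared by αEβ7 and α4β7, was the β chain detected in the most P6+ cells. It ranged from 1.04 to 7435 cpm over the P6+ cells (median 1240) and from 0 to 7531 cpm over the P6- cells (median 1.87). It was detected in 23 of 32 P6+ cells (71.9%, 53.3 to 86.3) and in 34 of the P6- cells (26.4%, 18.99 to 34.8). Pooled Itgb7 was 1843 cpm in P6+, 701 cpm in all P6- and 175 cpm in same-plate P6- cells, a log2 ratio of 1.39 to all P6- cells. At 500000 reads a cell it was detected in 21 P6+ and 32 P6- cells; at full depth 2 P6+ cells held exactly 10 reads.

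Itgav, the α chain that pairs with several β chains, was detected in as many P6+ cells as Itgb7. It ranged from 0 to 3196 cpm in P6+ (median 136.5) and from 0 to 2063 cpm in P6- cells (median 0.642). It was detected in 23 of 32 P6+ (71.9%, 53.3 to 86.3) and in 32 of the P6- cells (24.8%, 17.6 to 33.2), with pooled levels of 327 and 144.2 cpm and a log2 ratio of 1.18. The same-plate P6- cells stood closer, with 279 cpm, a log2 ratio of 0.23 and 4 of 11 cells. Itgb8, which pairs with Itgav alone, was rare in both groups: 4 of 32 P6+ cells (12.5%) and 4 of the P6- cells (3.10%) held it, with 57.5 and 12.2 cpm and a log2 ratio of 2.15. Of the P6+ Itgb8 reads 50.8% lay in 1 cell, and without the top cell of each group the levels were 29.6 and 7.31 cpm, a log2 ratio of 1.88. With so few cells the ratio moved widely, to 1.51 as a mean over cells, 1.49 with cells thinned to 500000 reads, 2.94 against same-plate P6- cells and 3.40 without cells with B cell marker reads. In the P6+ cells that had Itgb8 it stood at 203 to 1736 reads, and all the others held 0 or 1.

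Itga4, the α chain of VLA-4 and α4β7, was detected in 5 of 32 P6+ (15.6%) and 9 of the P6- cells (6.98%). Its pooled 121.1 cpm in P6+ against 59.7 cpm in P6- gave a log2 ratio of 1.01, but 64.1% of the P6+ reads lay in 1 cell, and without the top cell of each group the levels were 45.01 and 45.39 cpm, a log2 ratio of -0.012. No Itga4 read fell in the 11 same-plate P6- cells, where the exact upper limit of the share of cells (28.5%) lay above the P6+ share. The LFA-1 chains were common in both groups. Itgal was detected in 17 of 32 P6+ (53.1%) and 35 P6- cells (27.1%), ranged up to 2839 and 4028 cpm, and had medians of 71.1 and 1.16 cpm. Its pooled levels were 465 and 325 cpm, a log2 ratio of 0.52. Against same-plate P6- cells (155.6 cpm, 2 of 11 cells) its log2 ratio was 1.57. Itgb2 was detected in 18 of 32 P6+ (56.2%) and 45 P6- cells (34.9%), ranged up to 4936 and 6478 cpm, and had medians of 279 and 2.16 cpm; its pooled levels were 780 and 667 cpm, a log2 ratio of 0.23.

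Itgb1, the β chain of VLA-4, was the only chain of the 8 with a lower pooled level in P6+ cells, 301 against 412 cpm, a log2 ratio of -0.45. Its share of cells was nearly equal, 9 of 32 (28.1%) and 34 of the P6- cells (26.4%), but among the cells that had it the median was 275 cpm in P6+ and 1136 cpm in P6-. Of its P6+ reads, 50.3% lay in 1 cell, and without the top cell of each group the log2 ratio was -1.24. Against the same-plate P6- cells (389 cpm) the log2 ratio was -0.37, and without cells holding 10 or more reads on a B cell marker the direction turned, to 0.066.

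Of the 8 chains, 5 were 2-fold or more higher in P6+ at 20 cpm or more (Itgae, Itgb8, Itgb7, Itgav and Itga4) and 0 were lower, where 24.3% of 7385 genes were higher and 26.7% lower (51% in either direction). The median log2 ratio was 1.09 over the 8 chains and 0.01 over all genes tested. Itgae was selected as high in tetramer-positive cells, so its part in this count and median was fixed in advance. Itga4 passed at 1.01 with 64.1% of its P6+ reads in 1 cell. Against the same-plate P6- cells 5 chains were again 2-fold higher (Itgae, Itgb7, Itga4, Itgb8 and Itgal), with a median of 2.26 over the chains and 0.73 over all 6809 genes tested, of which 47.2% were higher and 72.7% were past the limit in either direction. P6+ cells also held more genes per cell at equal depth than all P6- cells (medians of 2720.5 and 2225, with 2592 in the same-plate cells), and the part of this in the shares of cells with a chain was not tested.

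**Figure D2:**
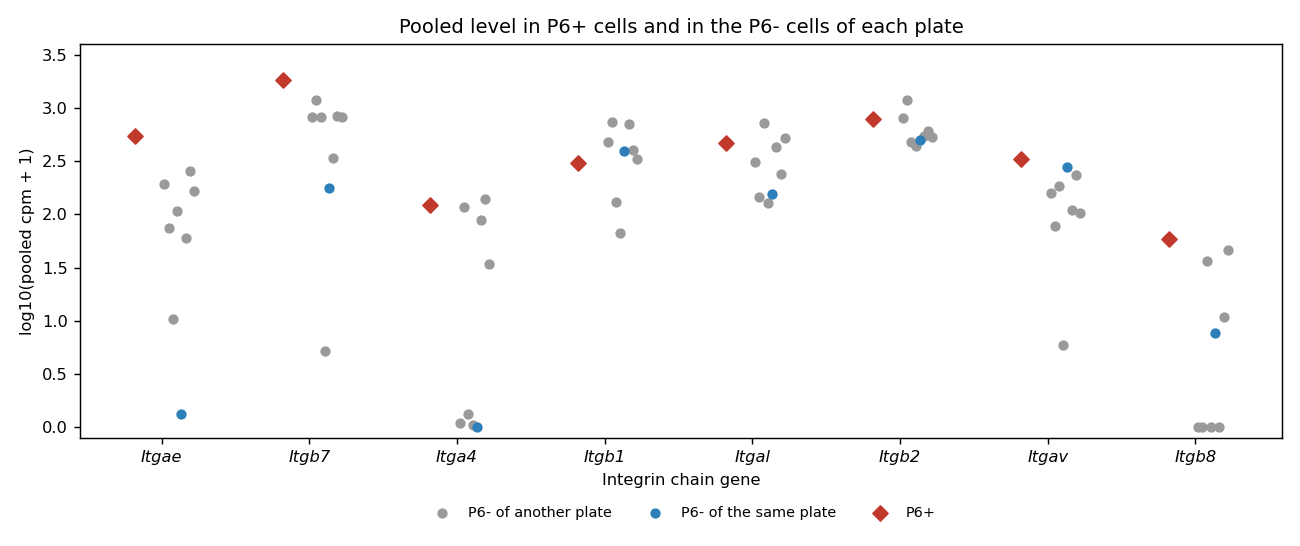
Pooled level as log10(cpm + 1) on the y axis for the 8 chains on the x axis, with a red diamond for P6+ cells, a blue point for P6- cells of the same plate and grey points for P6- cells of the 7 other plates. The P6+ diamond lay above all P6- points for Itgae, Itgb7, Itgav and Itgb8, and among or below them for the other chains.

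P6- cells of single plates (11 to 24 passing cells each) gave a measure of how far such pools vary. Itgae spanned 0.324 to 256 cpm over the 8 plates with a median of 90.1, Itgb7 4.14 to 1185 with a median of 815, Itgav 4.86 to 279 with a median of 132.9, and Itgb8 0 to 45.2 with a median of 3.30. For these 4 chains the P6+ level was above all 8 plates, as it was for 14.2% of all genes tested. For Itgav and Itgb8 this rested on 1 P6+ cell each, without which their P6+ levels were 250.5 and 29.6 cpm, below the highest plate. The P6+ level of Itga4 was above 7 plates, that of Itgal and Itgb2 above 6 each, and that of Itgb1 above 2.

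Divided by transcript length, so that genes can be set side by side, the pooled P6+ levels ran from Itgb7 (687 cpm per kb) through Itgb2 (263), Itgae (142.3), Itgal (88.95), Itgb1 (78.8), Itgav (46.4) and Itga4 (12.4) to Itgb8 (6.85). In P6- cells the order was Itgb7 (261 cpm per kb), Itgb2 (225), Itgb1 (108.1), Itgal (62.1), Itgae (31.1), Itgav (20.4), Itga4 (6.11) and Itgb8 (1.45). Itgae was thus behind 2 chains in P6+ and behind 4 in P6-. Both orders were the same without the top cell of each chain, but neighbouring values such as Itgal and Itgb1 in P6+ (88.95 and 78.8 cpm per kb) lay closer than the loss of 1 cell moved them (to 72.3 and 40.7).

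Pairing was then read within cells. Of the 11 P6+ cells with Itgae, 10 also had Itgb7 (90.9%, 58.7 to 99.8), and the remaining cell held 9 Itgb7 reads, 1 below the limit. Of the 21 P6+ cells without Itgae, 13 had Itgb7 (61.9%, 38.4 to 81.9). Itgb7 was thus frequent with or without Itgae. In P6- cells 7 of 10 with Itgae had Itgb7 (70%, 34.8 to 93.3), against 27 of those without Itgae (22.7%, 15.5 to 31.3). Both chains of αEβ7 were found in 10 of 32 P6+ (31.2%, 16.1 to 50.01) and 7 of the P6- cells (5.43%, 2.21 to 10.9), and in 0 of 11 same-plate P6- cells.

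**Figure D3:**
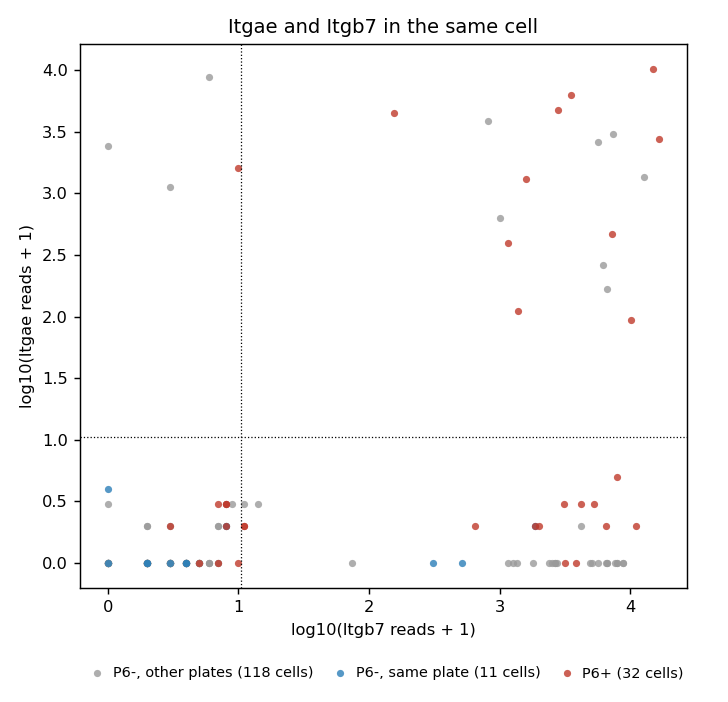
Each point is 1 cell, with log10(Itgb7 reads + 1) on the x axis and log10(Itgae reads + 1) on the y axis, in red for P6+, blue for same-plate P6- and grey for other P6- cells. Dotted lines mark 10 reads; the upper right field holds the 10 P6+ and 7 P6- cells with both chains.

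The balance of the chains varied in these cells. Per length, Itgae over Itgb7 ran from 0.00629 to 20.1 over the 10 P6+ cells with both chains, with a median of 0.360, and Itgae was the higher of the pair in 3 of them. The highest Itgae cell (10258 reads) held 14882 Itgb7 reads, and the cell of most Itgb7 reads (16647) held 2754 of Itgae. Over the 32 P6+ cells Spearman's rho of Itgae with Itgb7 was 0.32, the rank 153 among 2293 genes, and over the P6- cells it was 0.20, the rank 49 among 1152; the cells share a mouse and differ in depth, and rho of Itgae with genes per cell was 0.21 and 0.25.

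Reads on a B cell marker moved with this pair. Of the 10 P6+ cells with Itgae and Itgb7, 8 held 10 or more reads on 1 of 7 B cell markers, against 7 of 22 other P6+ cells, and in P6- cells this was 5 of 7, against 25 of the others. Ighm reached 10 reads in 7 of the 10 P6+ cells with the pair and 7 of the 22 others, at 2060 cpm over the P6+ cells with the pair and 522 cpm over the other P6+ cells. The summed list ran from 1.14 to 7238 cpm in the former and 0 to 3734 cpm in the latter. The defining B cell markers Cd79a, Ms4a1, Pax5 and Ighd had no read in any P6+ cell, and Cd79b reached 10 reads in 2. Without the cells holding such reads, both chains were found in 2 of 17 P6+ (11.8%) and 2 of 99 P6- cells (2.02%), while the log2 ratio of Itgae was 2.10; the part of these reads in the pairing was not tested.

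**Figure D4:**
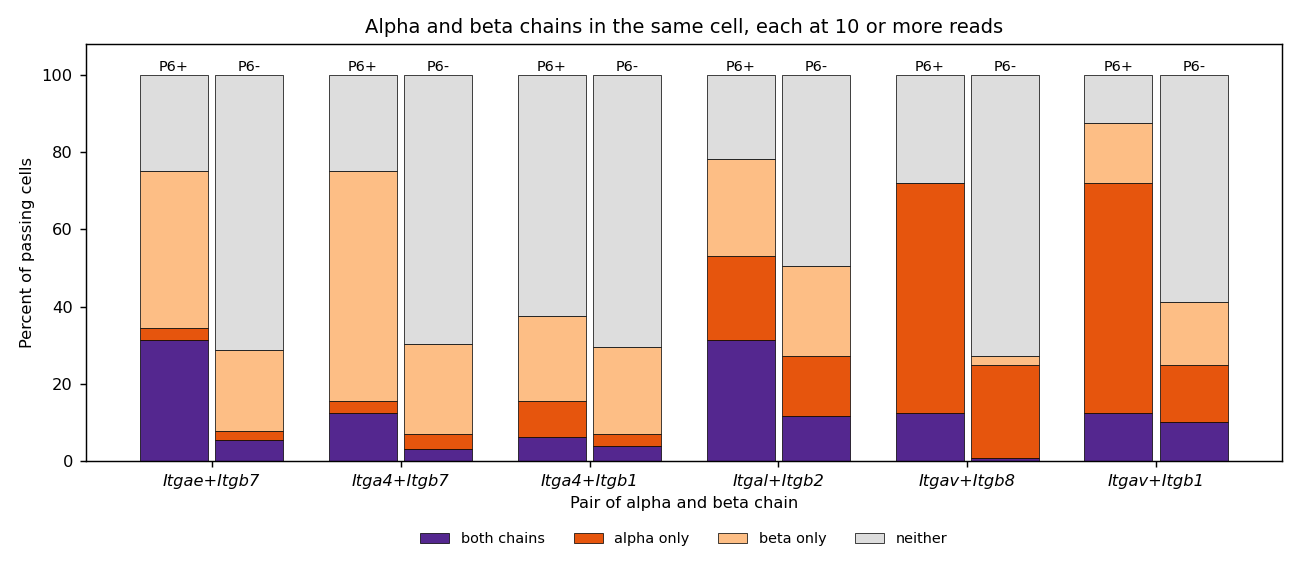
Stacked bars give the percent of passing cells (y axis) with both chains, the α chain only, the β chain only or neither, for the 6 pairs on the x axis. Itgae was mostly found with Itgb7, while most P6+ cells with Itgav had neither Itgb8 nor Itgb1.

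Itgb7 has a second partner in Itga4, and both were found in 4 P6+ and 4 P6- cells. Of the 5 P6+ cells with Itga4, 2 had Itgb7 alone, 2 had Itgb7 and Itgb1, 0 had Itgb1 alone and 1 had neither. Of the 23 P6+ cells with Itgb7, 11 had neither of its α chains at 10 reads. VLA-4, Itga4 with Itgb1, was found in 2 P6+ and 5 P6- cells.

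LFA-1, Itgal with Itgb2, was found in 10 of 32 P6+ (31.2%), 15 P6- (11.6%) and 0 of 11 same-plate P6- cells. In P6+ cells Itgb2 was detected in 10 of 17 cells with Itgal (58.8%) and 8 of 15 without it (53.3%), and 7 cells had Itgal only, 8 Itgb2 only and 7 neither. T cells are known to carry LFA-1 at the surface, and a partner with too few reads in a cell is not a missing protein.

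Itgav was often found without either of 2 of its β chains. All 4 P6+ cells with Itgb8 had Itgav, against 1 of 4 P6- cells with Itgb8, so that αvβ8 could be formed from detected transcripts in 4 of 32 P6+ (12.5%) and 1 P6- cell (0.775%). Itgav with Itgb1 was found in 4 P6+ (12.5%) and 13 P6- cells, and in 3 of 11 same-plate P6- cells (27.3%). In 17 of the 23 P6+ cells with Itgav neither of these β chains was detected, as in 18 of 32 P6- cells with Itgav and 1 of 4 same-plate P6- cells, and of the other β chains known to pair with it, Itgb3, Itgb5 and Itgb6 reached 10 reads in no P6+ cell.

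Counting all 8 chains, P6+ cells held a median of 3 (2 to 7) and P6- cells a median of 1 (0 to 6), with a median of 2 in the same-plate P6- cells. At least 1 complete pair was found in 21 of 32 P6+ cells (65.6%, 46.8 to 81.4), 35 P6- cells (27.1%, 19.7 to 35.7) and 3 of 11 same-plate P6- cells (27.3%). No chain was detected in 40 P6- cells (31.01%), in 2 of 11 same-plate P6- cells (18.2%) and in 0 of 32 P6+ cells (exact upper limit 10.9%).

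**Figure D5:**
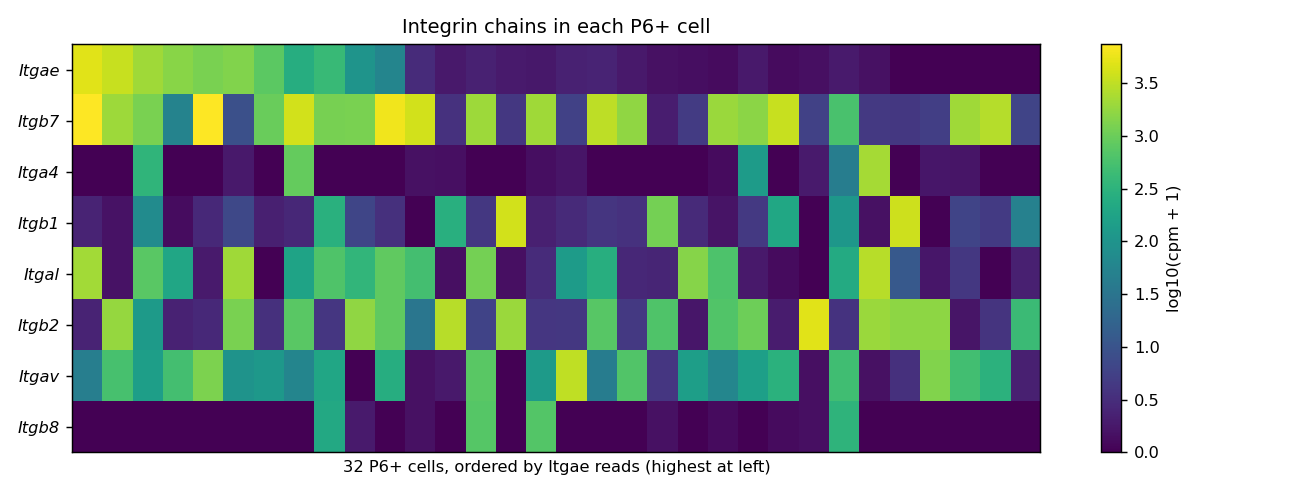
Colour gives log10(cpm + 1) of the 8 chains (rows) in the 32 P6+ cells (columns), ordered by Itgae reads. The 11 cells with Itgae are at the left, and Itgb7 and Itgav were detected in 10 of them each.

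Among the P6+ cells some chains went together and others did not. Itgb7 and Itgav were found together in 20 cells, and in 9 of these with Itgae as well. Each of the 2 was in 23 of 32 cells, so that much of this overlap follows from the shares alone, and their Spearman's rho was 0.29. Itgb2 and Itgav were found together in 9 cells, but no P6+ cell lacked both, with a Spearman's rho of -0.52 over the 32 cells; in P6- cells 65 lacked both and rho was 0.04. The 4 P6+ cells with the most Itgb1 (646 to 8977 reads) all had Itgb2 (1242 to 6662 reads), and held at most 7 Itgb7 and at most 6 Itgav reads. The next cell, with 629 Itgb1 reads, went the other way, with 11102 Itgb7, 940 Itgav and 3 Itgb2 reads. These combinations were picked after their values were seen.

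The chains were also read against Foxp3 and a receptor segment. Foxp3, the factor of regulatory T cells, went with Itgae in P6- cells, where 7 of 19 cells with Foxp3 (36.8%) and 3 of 110 without it (2.73%) had Itgae; in P6+ cells these were 5 of 11 and 6 of 21, with pooled Itgae levels in the other order, 365 and 627 cpm, and Itgb7 was found in 11 of 11 and 12 of 21. All 16 P6+ cells with the receptor segment Trbv13-2 had Itgb7 and Itgav, against 7 of 16 each without it, and Itgae was found in 7 and 4; in P6- cells Itgb7 was found in 8 of 26 with it (30.8%) and 25.2% of those without, and Itgav in 30.8% and 23.3%.

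The genes whose pattern over the 32 P6+ cells was most like that of Itgae, by Spearman's rho among 2293 genes found in at least 25% of cells, were Mxd1 (0.70), AW112010 (0.68), Rbx1-ps (0.67), Rbx1 (0.66) and Tap1 (0.59). Mxd1, a Myc antagonist of the Mad family, was found in 10 of 11 cells with Itgae and 2 of 21 without. Rbx1-ps is a near-identical copy of Rbx1, a ubiquitin ligase subunit, and their reads cannot be separated with certainty. Over the P6- cells the highest were Tnfrsf1b (0.33), which encodes TNF receptor 2, AW112010 (0.33), Lgals1 (0.30), Samsn1 (0.30) and Eef2 (0.29). AW112010 stood on both lists, in 11 of 11 P6+ cells with Itgae against 13 of 21 without, and 7 of 10 against 46 of the other P6- cells.

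The other integrin chains were nearly silent in P6+ cells. Of 14 other α and 4 other β chains only Itga6 reached 10 reads in a P6+ cell, in 1 of them and in 4 P6- cells. Itgb3, the β chain that pairs with Itgav in the vitronectin receptor, stood at 0.0337 cpm in P6+ and 20.1 cpm in P6- cells, where 5 cells had it, and Itga7 at 0.0506 and 30.7 cpm, the latter from 1 cell. These were the other chains that passed 20 cpm in either group, and both were 2-fold or more lower, as were 26.7% of all genes tested; against same-plate P6- cells the log2 ratio of Itga7 was -0.18, at 0.194 cpm there. Itgb3 and Itga5, an α chain of a fibronectin receptor, were the other chains past 20 cpm in the same-plate P6- cells, at 140.06 and 78.03 cpm from 1 cell each, against 0.0337 and 0 cpm in P6+ cells. The same-plate cell with Itgb3 held most of the Itgb3 reads of all P6- cells.

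Of 33 genes that switch integrins on or tie them to actin, 25 reached 20 cpm, 6 were 2-fold or more higher in P6+ and 4 lower, with a median log2 ratio of 0.28 (0.01 over all genes tested, of which 24.3% were higher and 26.7% lower). Against same-plate P6- cells 11 were higher and 4 lower, with a median of 0.90 (0.73 over all genes, 47.2% higher and 25.5% lower). These shares do not set the list apart from all genes, and its members are given as values. Rasgrp1, an activator of Ras, stood at 262 against 79.5 cpm (10 P6+ and 11 P6- cells), Flna, the actin cross-linker filamin A, at 280 against 91.1 cpm and Vasp, an actin elongation factor, at 435 against 145 cpm. Itgb1bp1, which binds the Itgb1 tail, had the largest log2 ratio (2.29, 57.1 against 10.9 cpm) but came from 3 P6+ cells. Lower were Rasgrp2, the exchange factor that loads Rap1 before integrin activation, at 70.6 against 173 cpm, and Sharpin, an inhibitor of integrin activation, at 24.4 against 67.02 cpm; both were found in 3 P6+ cells, 1 of which held 51.4% and 56.4% of the P6+ reads.

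The 3 smaller lists hold too few tested genes to be read against those shares. Of 9 ligand genes 4 were tested, 1 higher and 2 lower, with a median log2 ratio of -2.68, and against same-plate cells 2 were tested, 1 higher and 1 lower, with a median of 2.80. Icam1, the ligand of LFA-1, stood at 207 against 38.3 cpm, with 58.6% of its P6+ reads in 1 of 6 cells. Vcam1, the ligand of VLA-4, stood at 0.371 against 62.5 cpm, the latter from 2 cells, and Spp1, which encodes osteopontin, at 0.0169 against 30.3 cpm, the latter from 1 cell. Of 8 genes of latent TGF-β, the cargo of αvβ8, 4 were tested, 2 higher and 0 lower (2 and 1 against same-plate cells, with a median of 0.72): Tgfb1 at 101.5 against 33.4 cpm (18 P6+ and 37 P6- cells) and Nrros, which tethers latent TGF-β, at 261 against 57.9 cpm (10 P6+ and 6 P6- cells). Of 10 TGF-β receptor and Smad genes, 8 were tested, 1 higher and 3 lower with a median log2 ratio of -0.74, and 4 higher and 3 lower with a median of 0.79 against same-plate cells. Runx3, a transcription factor that works at the Cd4 silencer, stood at 102.2 against 36.3 cpm, while Smad3 stood at 0.0674 against 35.05 cpm, Smad2 at 9.25 against 93.7 cpm and Tgfbr2 at 183 against 432 cpm. Smad3 was found in 0 P6+ and 7 P6- cells. Of the P6+ reads, 43.5% of Runx3, 66.7% of Smad2 and 37.4% of Nrros lay in 1 cell each.

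Itgae lies on chromosome 11 (GRCm38, chr11:73090583-73147446, plus strand), Itgb7 on chr15:102215995-102231944 (minus), Itga4 on chr2:79255426-79333123 (plus), Itgb1 on chr8:128685654-128733200 (plus), Itgal on chr7:127296260-127335138 (plus), Itgb2 on chr10:77530252-77565708 (plus), Itgav on chr2:83724397-83806916 (plus) and Itgb8 on chr12:119158022-119238802 (minus). Haspin, a histone kinase gene, lies within Itgae on the other strand (chr11:73135485-73138294) and shares none of its exons; the library protocol does not mark strand. Haspin had 10 or more reads in 2 P6+ cells, both with Itgae, and in 0 P6- cells. Itga4 shares 1124 exonic bases with Cerkl and Itgav 634 with Gm13684, and reads there are uncertain.

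The stretches before the starts of Itgb7 and Itgav are shown because these chains were found together in 20 of 32 P6+ cells, and that of Itga4 beside them as a second partner of Itgb7. They are RefSeq sequences of GRCm38.p6, 5′ to 3′ on the gene's strand and upstream of the start, from chr15:102231945-102232185 (minus), chr2:83724147-83724396 (plus) and chr2:79255176-79255425 (plus).
Itgb7: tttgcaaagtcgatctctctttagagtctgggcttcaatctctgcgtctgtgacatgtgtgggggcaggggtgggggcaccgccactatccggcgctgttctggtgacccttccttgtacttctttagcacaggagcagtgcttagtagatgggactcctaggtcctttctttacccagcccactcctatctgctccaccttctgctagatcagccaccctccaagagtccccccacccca
Itgav: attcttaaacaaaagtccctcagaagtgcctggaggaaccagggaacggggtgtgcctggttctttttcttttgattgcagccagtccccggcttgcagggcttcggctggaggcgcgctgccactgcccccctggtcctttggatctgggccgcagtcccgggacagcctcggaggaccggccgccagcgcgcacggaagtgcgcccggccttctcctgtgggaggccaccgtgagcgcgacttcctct
Itga4: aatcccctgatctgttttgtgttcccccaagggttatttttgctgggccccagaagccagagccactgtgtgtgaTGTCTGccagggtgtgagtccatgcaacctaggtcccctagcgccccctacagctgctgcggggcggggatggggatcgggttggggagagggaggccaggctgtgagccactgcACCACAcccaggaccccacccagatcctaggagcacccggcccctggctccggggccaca
Capitals mark the letters TGTGGT or ACCACA, the core that RUNX factors bind, and CAGACA or TGTCTG, bound by SMAD factors, searched on both strands; the first pair is in 14% and the second in 17.1% of 32851 mouse promoters of the same table. Itga4 held 1 of each, at -60 and -175 from the start, Itgb1 held 1 of the second at -82, and Itgb7 and Itgav held neither in this window. The table matched 5 of the 8 genes (not Itgae, Itgal and Itgb2), and Itgb8 was not searched, since 0 bases of its entry lay before all annotated starts.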

How the data were processed

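Single-cell libraries of 176 cells (32 P6+, 144 P6-) were used. The authors sequenced paired-end reads, aligned them to GRCm38 with STAR 2.6.0a and deposited a table of read counts per gene and cell; FastQC 0.11.7 and SAMtools 0.1.19 are also named in the submitters' processing notes. No row lacked a gene name (0), and the 81 names listed more than once were averaged here, as the study's methods describe; none of the 8 chains was among them. Tetramer signs in the deposited metadata matched the labels in all 176 cells.

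Cells were kept at 500000 reads, 2000 genes and at most 10% mitochondrial reads. The study's further filter on mapping rate was not applied, since the count table holds no mapping rate. Counts of a group were summed and divided by its total reads (cpm); ratios used a pseudocount of 1 cpm, and a gene was tested against the 2-fold limit at 20 cpm or more in the higher group. Detection was 10 or more reads. With 1 mouse, each group counts as 1 sample and there are no replicates, so no p-value was computed. Pooled depth was 59345283 reads for P6+ and 203898848 for P6- cells. Thinning drew 500000 reads a cell. Transcript lengths and positions were from GENCODE on GRCm38, the longest coding transcript of each gene. The members and lists were chosen with earlier results of these data known. All 8 chains were named; of each list, the genes past 2-fold, at most the 6 largest; and the 5 genes of highest Spearman rho with Itgae. Cells were grouped by label. The alternatives were other cell limits, same-plate cells, means of cells, other pseudocounts, folds, minimum levels and read limits, edgeR 4.0.16 and DESeq2 1.42.0 scaling of the sums, removal of top cells, thinning, and removal of cells with B cell marker reads, the last added after seeing the data. Summing was checked on simulated data. Python 3.11.15 with pandas 2.3.3 and scipy 1.17.1 was used. Some marker genes are not reported here.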

Additional observations from a re-analysis of the deposited data

How the results depend on the processing

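The log2 ratio of Itgae (2.19) kept its direction under all alternatives run: 2.26 with no cell left out, 2.11 at a pseudocount of 10 cpm, 2.15 with TMM factors, 2.31 without the top cell of each group, 2.22 with cells thinned to 500000 reads and 2.10 without cells with B cell marker reads. Against same-plate P6- cells only it was 8.69. Those cells held 5 Itgae reads (0.324 cpm), so that the pseudocount of 1 cpm largely sets this size. The count of chains past 2-fold (5) was 4 or 5 in all others except at 4-fold, where it was 2; without top cells the 5 included Itgb1, lower in P6+, and no longer Itga4, whose log2 ratio there was -0.012. The percent of all genes past 2-fold (51%) was 12.8% with no minimum level. The share of cells with Itgae and Itgb7 was 84.4% of P6+ and 17.1% of P6- cells at a limit of 1 read, 11.8% and 2.02% without cells with B cell marker reads, and 0% of same-plate P6- cells. Single cells are the only repeats, depth limits detection of chains at a few reads, and the removal of B cell marker reads was chosen after seeing the data. No paired analysis was possible because the groups hold single cells whose numbers only name them.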
